A study of Mus musculus with 9 samples.

Results

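The transcripts described here are 54 rows of a mouse retina count table that carry the biotype TEC and had a raw count of at least 100 in each of the 9 libraries, out of 3230 TEC rows and 55414 rows in all. TEC is the biotype that annotators give to models still awaiting experimental proof. Retinas came from Balb/c mice, an albino strain, in 3 groups of 3 libraries: light damage alone, light damage with A74, and control. The labels do not say what A74 is, at what dose or in which vehicle it was given, how long the light lasted, or how old the animals were, and the title of the series names P2RX7, a channel opened by extracellular ATP. Whether the replicates of a group are separate animals is not labelled, so every p-value rests on the spread among these libraries alone, part of which may be technical. The members were thus chosen by their counts in the same libraries that are compared below, and 3 of them, Gm47160, Gm43231 and Gm48581, were named in that choice because they were lower in both light groups than in control. For these 3 the contrasts with control are described without a p-value. They still enter the counts of members called, so the main counts called against control are also given over the other 51. Other counts against control, such as those at an unadjusted p, by position or in alternative fits, include these 3.

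A TEC model is drawn by annotators where cDNA or EST clusters end in poly(A) features but no further evidence establishes a gene. Such a model can be an independent non-coding RNA, the end of an unannotated transcript form of a neighbouring gene, or a poly(A) stretch primed inside an intron of a longer precursor. Damaging light in albino rodents kills rod photoreceptors, the most numerous cells of the retina, and their loss is accompanied by activation of Müller glia and microglia. RNA was measured in whole retinas, so fewer cells of a type and less RNA per cell cannot be told apart.

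Every one of the 54 members was placed by its Ensembl identifier in the GENCODE M21 annotation of the mouse build GRCm38, since the table itself holds no coordinates. All 54 are TEC there too and have 1 exon. The models have a median length of 2375 bases (range 497 to 30942) and a median GC content of 44.4% (range 33.8% to 62.8%). For a coding gene, only exons of its protein-coding transcripts counted, and coding genes were taken before other overlapping genes. By this rule introns of another gene hold all or part of 18 members (33.3%), against 1915 of all 3230 TEC rows (59.3%). Most members are thus not intronic, although most TEC rows are. On the strand of the gene around them lie 10 members (18.5%), against 1605 of all TEC rows (49.7%). Another 14 members (25.9%) overlap an exon of another gene, 9 of them on the opposite strand, compared with 10.3% of all TEC rows. The remaining 22 lie outside genes, and 10 of these start within 10000 bases downstream of a protein-coding gene on the same strand (18.5%, against 4.37% of all TEC rows). No source used here states whether reads were counted by strand, so reads of a member and of a gene that overlaps it cannot be told apart.

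**Figure D1:**
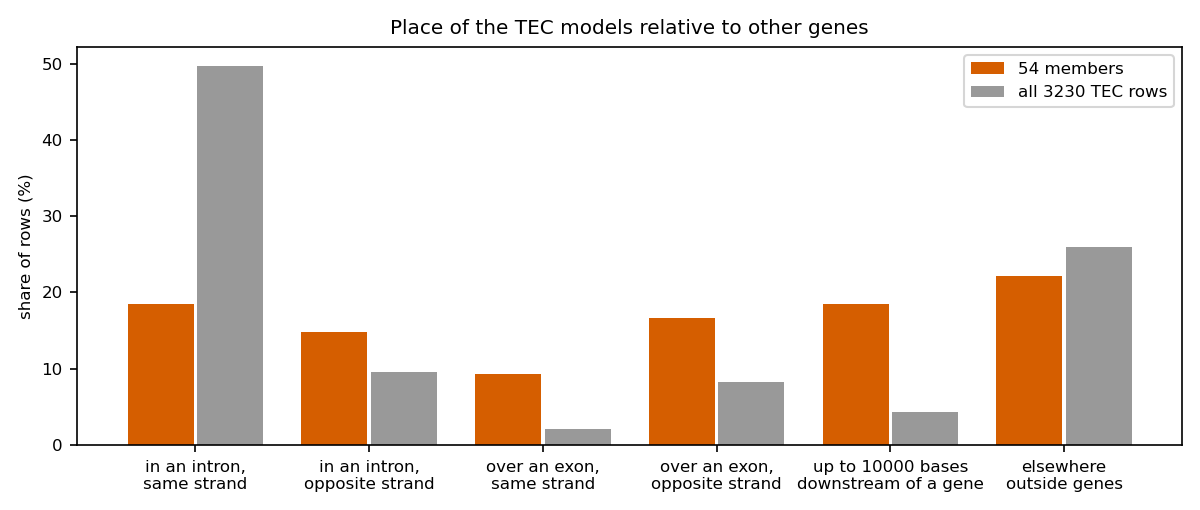
Share of TEC models (vertical axis, %) in each position relative to other genes, for the 54 members (orange) and all 3230 TEC rows of the table (grey). Same-strand introns hold 18.5% of the members and 49.7% of all TEC rows, while windows just downstream of a gene hold 18.5% and 4.37%.

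A polyadenylated RNA usually carries the hexamer AATAAA shortly before its cleavage site. On the annotated strand, 20 of 54 members (37.0%) have AATAAA in the last 50 bases of the model, against 705 of 3230 TEC rows (21.8%), 53.3% of the lncRNA genes and 61.1% of the protein-coding genes that pass the same count minimum. Its reverse complement TTTATT was in the same window of 2 members (3.7%), and of 4.55%, 6.67% and 7.7% of these rows. The last 60 bases of 3 models (GRCm38, annotated strand, 5′ to 3′, the hexamer in capitals) are shown because the results below turn on these members. Gm47160 (chr9:47473049-47474918, minus strand) and Gm48581 (chr13:47152357-47155008, minus strand) have the hexamer starting 21 and 23 bases from the end. Gm43231 (chr5:115427218-115429475, minus strand) has none in this window.
Gm47160: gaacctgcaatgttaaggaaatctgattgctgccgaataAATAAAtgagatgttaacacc
Gm48581: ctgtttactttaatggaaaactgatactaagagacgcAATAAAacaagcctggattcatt
Gm43231: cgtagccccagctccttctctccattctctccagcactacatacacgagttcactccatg

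Library totals ran from 14787972 to 18740434 counts, of which the members made up between 0.125% and 0.170%. Libraries of one group differed in sex-linked, lens and anterior eye transcripts. Xist, the RNA of the inactive X chromosome, had 17227 to 18172 counts in the A74 libraries and 22253 in control replicate 3, against 1 to 7 in the other 5 libraries. Y-linked genes had 4249 to 5832 counts in replicates 1 and 2 of light damage and of control, and 0 elsewhere, so light damage replicate 3 showed neither. A list of lens genes reached 764 CPM in A74 replicate 1, where CPM are counts relative to library size scaled by TMM factors, and no other library exceeded 97.6 CPM. A list of anterior eye genes summed to 238, 183 and 12.7 CPM in light damage, 138, 15.9 and 13.7 CPM in A74, and 202, 275 and 12.5 CPM in control. The third library of each group and the second of A74 were thus low in that list, and its part in the results was not tested. Light damage replicate 3 and A74 replicate 1 were left out together in an alternative fit, whose counts of members called and changed calls of named members are given below.

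Together the 54 transcripts were lower in both light groups than in control. Their summed level was 1172, 1233 and 1273 CPM in light damage, 1420, 1317 and 1417 CPM in A74, and 1711, 1701 and 1731 CPM in control. No library of one group overlapped another group. The means were 1226 ± 50.8 CPM in light damage, 1385 ± 58.4 CPM in A74 and 1714 ± 15.5 CPM in control (SD, n = 3 each). The light damage mean differed from control by -28.5% and the A74 mean by -19.2%, and A74 stood 13.0% above light damage. Over the 51 members that the choice did not name, the differences were -23.4% for light damage against control, -13.3% for A74 against control and 13.2% for A74 against light damage. Without light damage replicate 3 and A74 replicate 1 the 54 gave -29.9%, -20.3% and 13.7% in the same order. No test is given for the sum, because the choice used part of it.

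Gm47160 had the lowest light-to-control ratio of the 54. Its level was 68.8, 71.0 and 81.1 CPM in light damage, 83.0, 71.1 and 84.8 CPM in A74, and 180, 190 and 189 CPM in control. Every light-exposed library held less than any control library by a wide margin, and the light damage and A74 ranges overlapped. The log2 fold change was -1.34 (SE 0.07) for light damage over control and -1.22 (SE 0.07) for A74 over control. A74 against light damage gave 0.11 (SE 0.07, adjusted p = 0.312, edgeR), which does not pass. The model lies outside genes, 55255 bases from Cadm1, a cell adhesion gene on the opposite strand whose light damage change was -0.10 (adjusted p = 0.292, edgeR).

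Gm43231 had overlapping levels in the A74 and light damage libraries. It had 15.3, 14.5 and 16.5 CPM in light damage, 16.3, 15.8 and 13.6 CPM in A74, and 31.8, 28.0 and 29.2 CPM in control. Both light groups lay well under control. The log2 fold changes were -0.94 (SE 0.10) for light damage over control and -0.96 (SE 0.10) for A74 over control, with -0.02 (SE 0.10, adjusted p = 0.926, edgeR) for A74 over light damage. Its annotated start lies head to head with Msi1, 124 bases away. Msi1 encodes an RNA-binding protein of neural progenitors that photoreceptors also use for splicing. Msi1 changed by -0.35 in light damage over control (adjusted p = 0.00101, edgeR) and gave -0.20 in A74 over control (adjusted p = 0.152, edgeR). Counts of Gm43231 were 2.90%, 2.62% and 2.99% of Msi1 counts in light damage, 2.55%, 2.73% and 2.29% in A74, and 4.54%, 3.96% and 4.33% in control, with neither light group overlapping control.

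Gm48581 was between its light damage and control levels in A74 retinas. It had 18, 18.3 and 17.2 CPM in light damage, 24.2, 20.3 and 24.7 CPM in A74, and 39.9, 38.4 and 34.7 CPM in control. The 3 groups did not overlap. The log2 fold change was -1.08 (SE 0.09) for light damage over control and -0.71 (SE 0.09) for A74 over control. A74 exceeded light damage by 0.37 (SE 0.09, adjusted p = 0.0128, edgeR), a call that was lost without A74 replicate 3 (adjusted p = 0.0649, edgeR) and without light damage replicate 3 and A74 replicate 1 together (0.31, adjusted p = 0.0516, edgeR). The model lies in an intron of Rnf144b, a ubiquitin ligase gene, on the opposite strand. Rnf144b itself gave -0.02 in light damage over control (adjusted p = 0.871, edgeR). Gm48581 counts were 28.9%, 29.2% and 26.5% of Rnf144b counts in light damage, 43.3%, 35.2% and 43.5% in A74, and 59.7%, 60.8% and 56.1% in control, so the ratio kept the order of the levels.

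**Figure D2:**
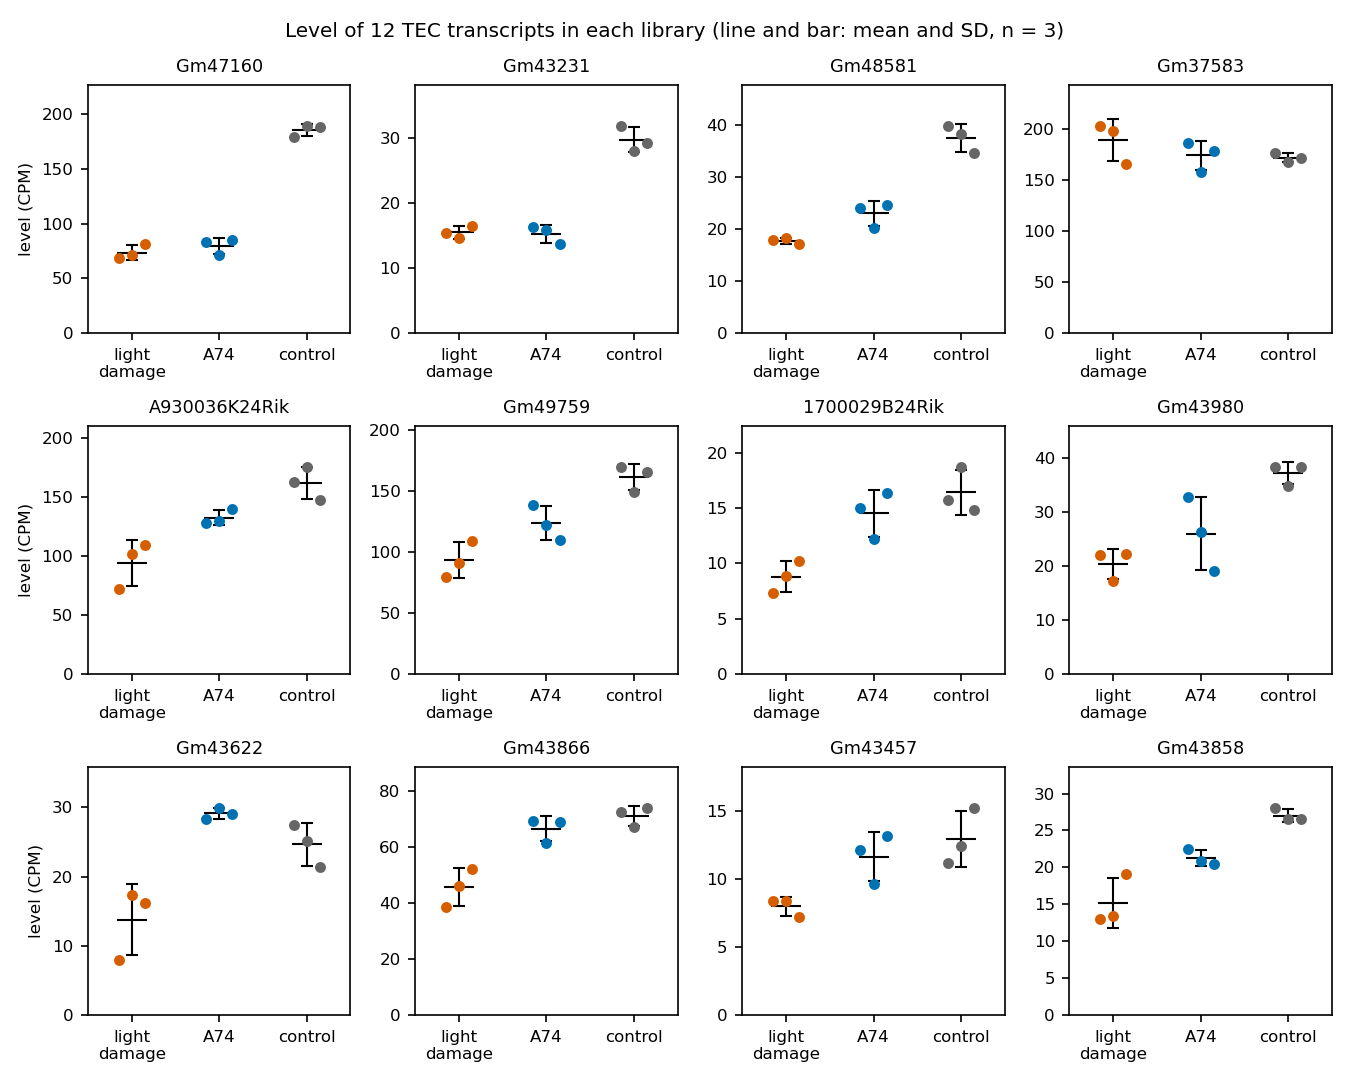
Level (vertical axis, CPM) of 12 TEC transcripts in each library, by group, with light damage, A74 and control from left to right; points are libraries and the bars give mean and SD (n = 3). Gm47160, Gm43231 and Gm48581 are lower in all 6 light-exposed libraries than in control, while Gm37583 overlaps between the groups.

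Protein-coding genes with the most similar course over the 9 libraries were ranked for each of these 3 transcripts by Pearson's r of log2 CPM among 13545 genes, as a description. The highest for Gm47160 were Zfand5 (r = 0.986), Zfc3h1 (0.982) and Cyld (0.966). For Gm43231 they were Arfgef2 (0.985), Kif24 (0.981) and Pcnx (0.977), and for Gm48581 Mamld1 (0.972), Msi1 (0.970) and Gas6 (0.969). The 9 libraries share the group structure, which alone gives high values. The shift of the coding genes was smaller: Zfc3h1 averaged 131 CPM in light damage, 139 CPM in A74 and 192 CPM in control, and Zfand5 averaged 173 CPM, 174 CPM and 191 CPM in the same groups.

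In light damage against control, 25 of the 54 members passed as lower and 0 as higher (edgeR quasi-likelihood test over 17272 genes, Benjamini-Hochberg adjusted p under 0.05). That is 46.3% and 0% of the members, against 17.5% and 14.2% of the 11020 genes with at least 100 counts in each library and 12.8% and 13% of all genes tested. Of the 51 members that the choice did not name, 22 (43.1%) were called lower and 0 higher. The median log2 fold change was -0.34 over the 54 and -0.30 over the 51, against 0.01 for all genes tested, and 43 of the 54 were below 0. In 32 members, 29 of them among the 51, all light damage libraries lay below all control libraries (24.8% of genes at the same minimum) and in 1, Gm44950, all lay above (22.2%). At an unadjusted p under 0.05, 30 members were lower and 0 higher, against 24% and 20.4% of genes at the same minimum. DESeq2 called 24 members, all lower, against 16.9% of these genes lower and 12.5% higher. With the 2 libraries set apart above left out (the third of light damage and the first of A74), 25 were lower and 2 higher, and the 2 were Gm37583 and Gm47982. That fit called 2897 of 17570 genes lower and 2900 higher.

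The choice named 3 members for being lower in both light groups than in control, and the same pattern was counted over all members. All 6 light-exposed libraries were below all 3 control libraries in 14 of 54 members (25.9%), and in 11 of the 51 not named (21.6%), against 8.44% of genes with at least 100 counts. Besides Gm47160, Gm43231 and Gm48581 these were 4632432E15Rik, A930005G22Rik, A930036K24Rik, Gm10686, Gm43857, Gm43858, Gm43980, Gm47233, Gm48062, Gm49759 and Gm49883. Both contrasts share the control libraries.

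**Figure D3:**
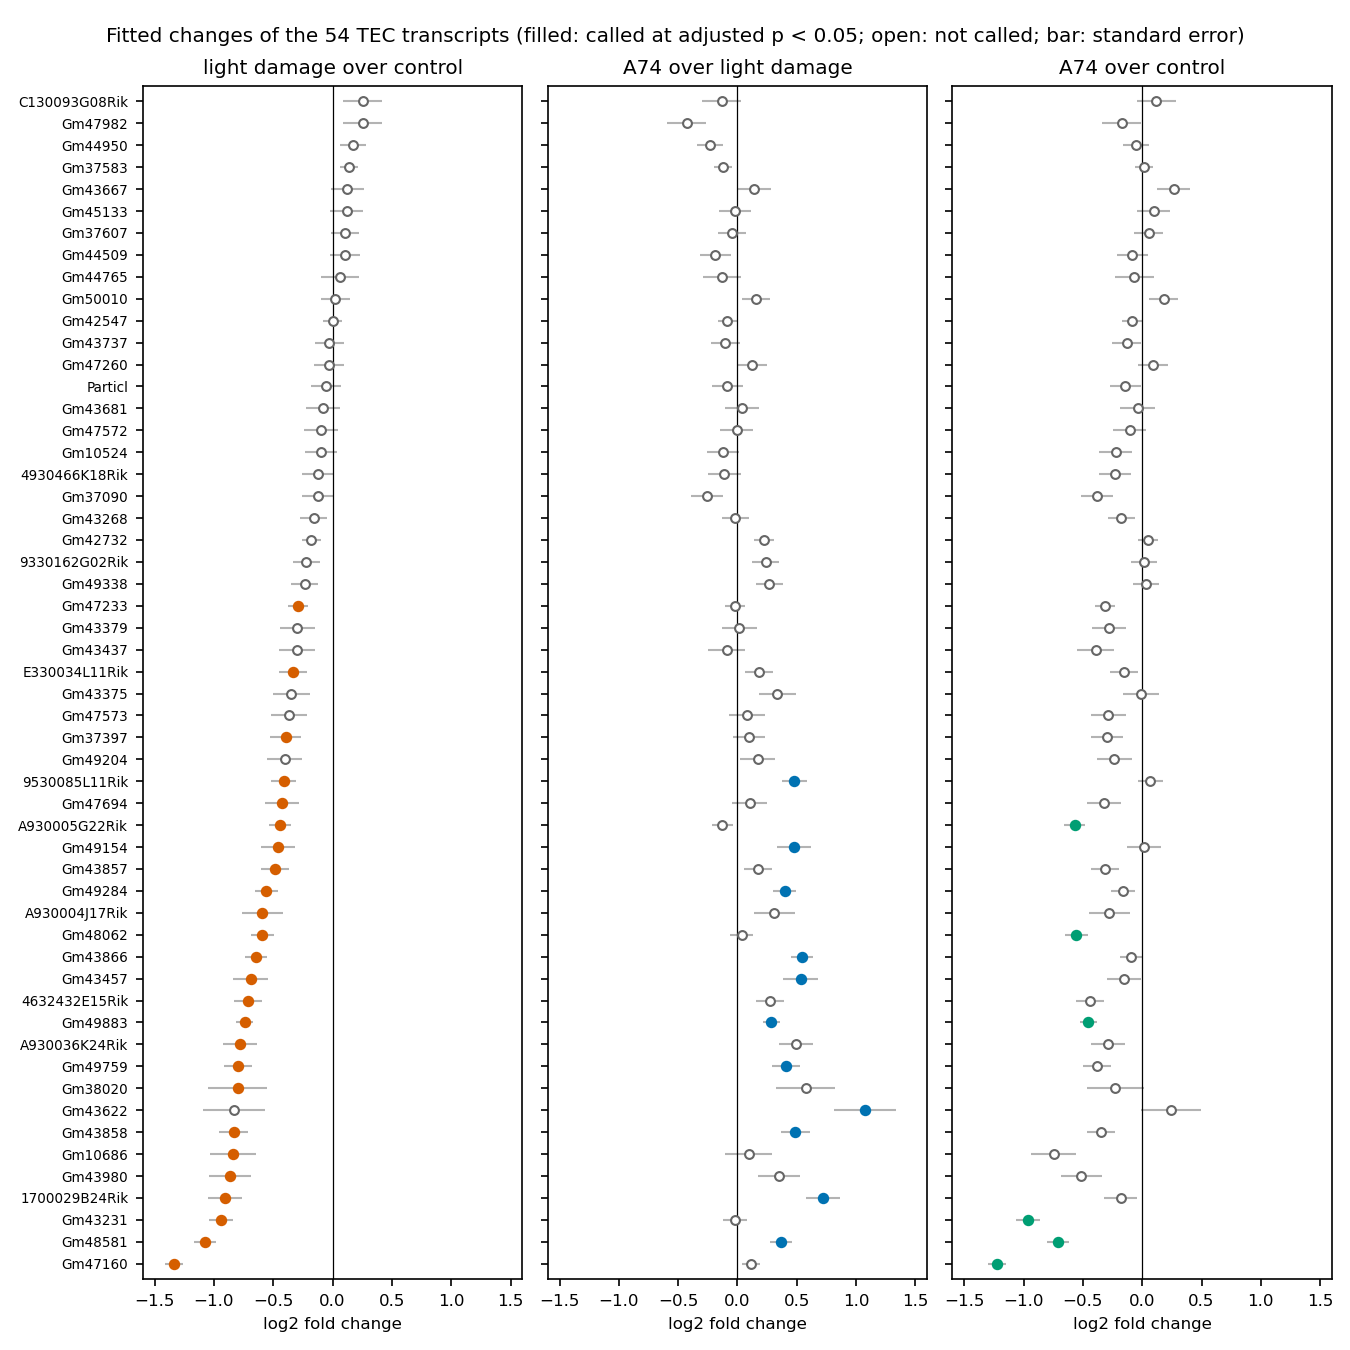
Log2 fold change (horizontal axis) of all 54 TEC transcripts in the 3 comparisons, ordered by light damage over control; bars are standard errors, and filled points passed an adjusted p under 0.05. On the left 25 are called and all lie below 0; in the middle 11 are called above 0; on the right 6 are called below 0. The calls on the left and on the right include the 3 transcripts named in the choice for being below control.

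Among the most counted members, A930036K24Rik and Gm49759 fell with light damage and Gm37583 did not. A930036K24Rik has the highest level per length, a mean of 108 CPM per kilobase of model. It had 72.3, 102 and 109 CPM in light damage, 128, 130 and 140 CPM in A74, and 162, 175 and 148 CPM in control, without overlap between any groups. The log2 change was -0.78 (SE 0.14, adjusted p = 0.00588, edgeR) in light damage over control and 0.49 (SE 0.14, adjusted p = 0.0502, edgeR) in A74 over light damage. The second change just missed the threshold. It was called by DESeq2 (adjusted p = 0.000446), with the replicate block (adjusted p = 0.0344, edgeR), without a count filter (adjusted p = 0.00379, edgeR), and without light damage replicate 1 (0.33, adjusted p = 0.00812, edgeR) or 3 (0.61, adjusted p = 0.0223, edgeR). It lies tail to tail with Sema3f, a secreted axon guidance factor, 219 bases apart, and Sema3f changed by -0.55 and 0.43 in the same comparisons (adjusted p = 2.32e-05 and 0.000277, edgeR).

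Gm49759 had 79.4, 91.0 and 109 CPM in light damage, 138, 122 and 110 CPM in A74, and 170, 149 and 166 CPM in control. The ranges of the 3 groups stayed apart, light damage replicate 3 reaching almost to the lowest A74 library. It fell by 0.80 on the log2 scale in light damage (SE 0.12, adjusted p = 0.00141, edgeR) and was higher by 0.41 with A74 than with light damage alone (SE 0.12, adjusted p = 0.0421, edgeR), a call that was lost in 6 of the 9 fits that left out a library. The model overlaps an exon of Pkm, the glycolytic pyruvate kinase gene, on the same strand, so reads could be assigned to either. Pkm gave -0.17 in light damage over control (adjusted p = 0.148, edgeR), and Gm49759 counts were 4.24%, 4.13% and 5.12% of Pkm counts in light damage, 5.48%, 5.33% and 5.00% in A74, and 7.19%, 6.27% and 7.32% in control.

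Gm37583, whose model begins 472 bases downstream of Lactbl1, had 203, 199 and 166 CPM in light damage, 186, 159 and 178 CPM in A74, and 177, 168 and 172 CPM in control. The groups overlapped, and the light damage change of 0.14 (SE 0.08, adjusted p = 0.198, edgeR) did not pass. Without light damage replicate 3 and A74 replicate 1 it was called higher in light damage, by 0.22 (adjusted p = 0.00543, edgeR), and lower in A74 than in light damage, by -0.25 (adjusted p = 0.0057, edgeR).

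1700029B24Rik, the shortest model at 497 bases, fell the most among the members that the choice did not name. Its level was 7.34, 8.84 and 10.2 CPM in light damage, 15, 12.2 and 16.3 CPM in A74, and 15.7, 18.7 and 14.8 CPM in control. Light damage stood apart from both other groups, which overlapped. The log2 change was -0.90 (SE 0.14, adjusted p = 0.000343, edgeR) in light damage over control, and 0.72 (SE 0.14, adjusted p = 0.00318, edgeR) in A74 over light damage. Its nearest coding gene, Fabp12, a fatty acid binding protein gene on the opposite strand 1901 bases away, moved by -0.44 and 0.54 in these comparisons (adjusted p = 0.00852 and 0.00465, edgeR).

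Gm43980, in an intron of the splicing regulator gene Tra2a on the opposite strand, had 22.0, 17.2 and 22.1 CPM in light damage, 32.6, 26.2 and 19.1 CPM in A74, and 38.3, 34.8 and 38.3 CPM in control. Both light groups were under control, and the A74 libraries were widely spread. It fell by 0.86 in light damage (SE 0.18, adjusted p = 0.0064, edgeR). Tra2a changed by -0.21 (adjusted p = 0.0142, edgeR).

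Gm43866 was lower in light damage than in both other groups. It had 38.4, 46.1 and 51.9 CPM in light damage, 69.3, 61.2 and 68.9 CPM in A74, and 72.3, 66.9 and 73.8 CPM in control, and no light damage library reached a level seen in either other group. The log2 change was -0.64 (SE 0.09, adjusted p = 0.000224, edgeR) in light damage over control and 0.55 (SE 0.09, adjusted p = 0.00128, edgeR) in A74 over light damage.

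Gm43858 is a same-strand intronic member that moved with the gene around it. It lies in an intron of Usp33, a deubiquitinase gene, and had 13.1, 13.4 and 19.1 CPM in light damage, 22.4, 20.9 and 20.4 CPM in A74, and 28.0, 26.5 and 26.5 CPM in control. The groups were ordered without overlap. It fell by 0.83 in light damage (SE 0.12, adjusted p = 0.000182, edgeR) and was higher by 0.49 in A74 than in light damage (SE 0.12, adjusted p = 0.0117, edgeR), a call lost without light damage replicate 1 or 2 (adjusted p up to 0.0735, edgeR). Usp33 changed by -0.76 and 0.56 (adjusted p = 0.00107 and 0.00798, edgeR). The ratio of the counts was 13.2%, 11.6% and 14% in light damage, 11.8%, 12.5% and 12.8% in A74, and 13.5%, 14.6% and 13.1% in control. Gm43857, over a Usp33 exon on the opposite strand, also fell in light damage, by 0.49 (adjusted p = 0.0072, edgeR), a call lost without light damage replicate 2 (adjusted p = 0.0529, edgeR).

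Gm43622 moved against the gene around it. The model lies in an intron of Cspg5, a brain and retina proteoglycan gene, on the opposite strand. It had 7.88, 17.3 and 16.1 CPM in light damage, 28.4, 29.9 and 29.0 CPM in A74, and 27.5, 25.1 and 21.3 CPM in control. Light damage was lowest and did not overlap, with replicate 1 far under the other 2 libraries. A74 exceeded light damage by 1.08 (SE 0.26, adjusted p = 0.0284, edgeR), the largest change of a member in that comparison, but the call was lost in 4 of the 9 fits without a library, those without control replicate 2 or any one A74 library (adjusted p up to 0.0855, edgeR). It was also lost without light damage replicate 3 and A74 replicate 1 together (1.21, adjusted p = 0.0869, edgeR). Light damage over control gave -0.83 (SE 0.26, adjusted p = 0.0533, edgeR), which does not pass, while DESeq2 called it (adjusted p = 0.0196). Without light damage replicate 1 the change was -0.55 and was called (adjusted p = 0.00218, edgeR), and without replicate 2 it was -1.03 (adjusted p = 0.041, edgeR). Cspg5 gave 0.33 and -0.37 in light damage over control and A74 over light damage (adjusted p = 0.0182 and 0.0142, edgeR).

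Members were set beside the gene they lie in or next to, which was itself tested and is compared here for 52 of them. In light damage against control the neighbour was called lower in 13 of these 52 pairs and higher in 1, with a median of -0.11. Of all genes tested, 12.8% were called lower and 13% higher. Among genes with at least 100 counts in each library, a minimum that not every neighbour reaches, the shares were 17.5% and 14.2%. Usp33 is the neighbour of both Gm43857 and Gm43858, so it enters the 13 more than once. AU041133 likewise stands beside both Gm47572 and Gm47573. The member had the lower log2 fold change in 36 pairs, and the median of member minus neighbour over all pairs was -0.17. Without the 3 members named in the choice it was lower in 33 of 49 pairs, with a median difference of -0.15. Over all 52 pairs the member was lower for 9 of the 10 members in same-strand introns, 3 of the 7 in opposite-strand introns, 4 of the 5 over same-strand exons, 4 of the 9 over opposite-strand exons and 16 of the 21 outside genes. Members called lower numbered 4 of 10, 4 of 8, 4 of 5, 3 of 9 and 10 of 22 in the same classes, so calls came from every class. The difference between a member and its neighbour was not tested.

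**Figure D4:**
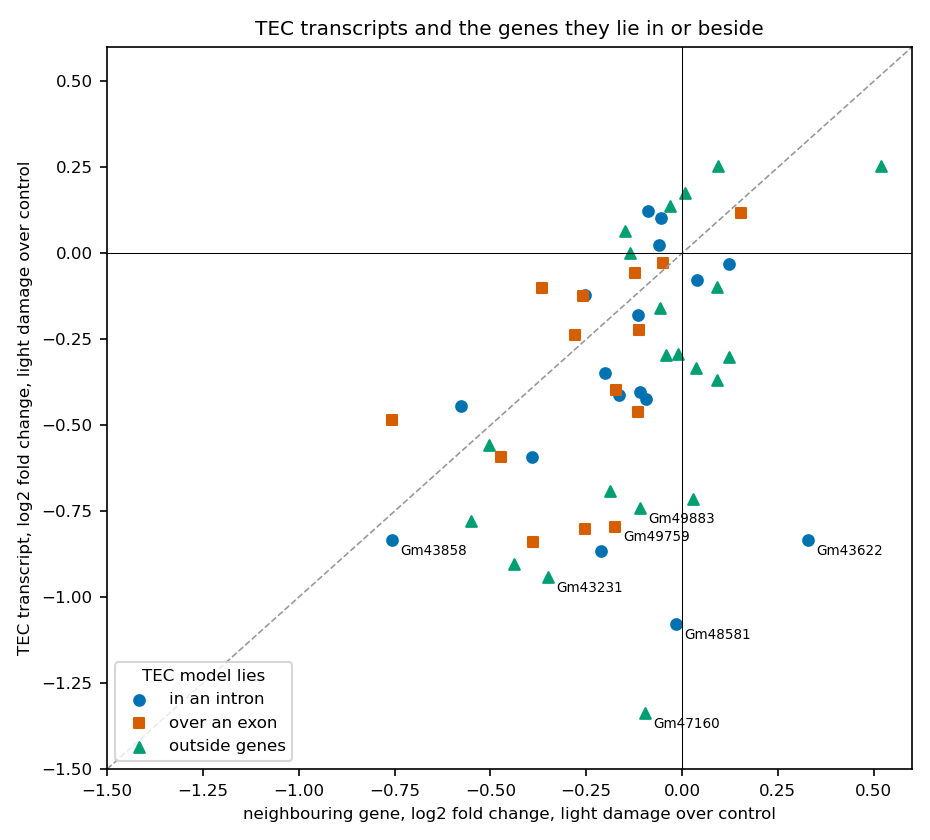
Log2 fold change in light damage over control of each TEC transcript (vertical axis) against that of the gene it lies in or beside (horizontal axis), for 52 pairs; the dashed line marks equal change. Gm43858 lies near the line, and Gm47160, Gm48581 and Gm43622 lie far below it; 36 of 52 pairs fall below the line.

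A74 against light damage gave 11 members called higher and 0 lower. That is 20.4% and 0% of the members, against 12.9% and 9.43% of genes with at least 100 counts and 9.07% and 9.19% of all genes tested. The members' median was 0.11, against -0.00 for all genes tested. All A74 libraries lay above all light damage libraries in 15 members (22.8% of genes at the same minimum) and below in 1, Gm37090 (18.2%). The 11 were 1700029B24Rik, Gm43622, Gm43866, Gm43457, Gm43858, 9530085L11Rik, Gm49154, Gm49759, Gm49284, Gm48581 and Gm49883. At an unadjusted p under 0.05, 17 members were higher and 1 lower, against 22.4% and 16.3% of genes at the same minimum. DESeq2 called 12, all higher, against 12.5% of these genes higher and 8.62% lower. The edgeR count was 7 without light damage replicate 2 and 7 without A74 replicate 1. Genes called higher also fell in these fits, to 786 of 17587 and 1353 of 17679, from 1566 of 17272. Without light damage replicate 3 and A74 replicate 1 together, 8 members were higher and 2 lower, where 2283 of 17570 genes were called higher and 2235 lower. Xist counts separate all libraries of these groups and Y-linked counts all but light damage replicate 3. With presence of Y-linked counts as a term 3 members were called, namely Gm43866, Gm48581 and 1700029B24Rik. In that fit 337 of 17272 genes were called higher and 408 lower. No A74 library has Y-linked counts, so the contrast leans on light damage replicate 3 and control replicate 3, which also lack them. The 8 other members called without the term gave 0.22 (Gm49883) to 1.07 (Gm43622) with it, against 0.29 and 1.08 for the same transcripts in the main fit.

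Gm43457, 858 bases downstream of Fam193a on its strand, had 8.42, 8.37 and 7.21 CPM in light damage, 12.1, 9.63 and 13.1 CPM in A74, and 11.2, 12.4 and 15.2 CPM in control. Light damage was under both other groups. The change was 0.54 (SE 0.15, adjusted p = 0.0194, edgeR) in A74 over light damage and -0.69 (SE 0.15, adjusted p = 0.00282, edgeR) in light damage over control; the first was lost without light damage replicate 2, A74 replicate 1 or A74 replicate 3, and without light damage replicate 3 and A74 replicate 1 together (adjusted p = 0.0711, edgeR). 9530085L11Rik, in a same-strand intron of Dcun1d2, a neddylation gene, gave 0.48 in A74 over light damage (SE 0.10, adjusted p = 0.00535, edgeR). Gm49154 overlaps an exon of Otx2, a transcription factor gene of photoreceptor and bipolar cells, on the same strand, and also gave 0.48 (SE 0.14, adjusted p = 0.0299, edgeR). Its call was lost in 3 of the 9 fits without a library, and without light damage replicate 1 the change was 0.29 (adjusted p = 0.145, edgeR). Otx2 gave 0.22 (adjusted p = 0.021, edgeR). Gm49284, 745 bases downstream of Atpsckmt, gave 0.40 (SE 0.10, adjusted p = 0.0113, edgeR), a call lost without light damage replicate 1 or A74 replicate 1 (adjusted p up to 0.0573, edgeR). Atpsckmt gave 0.42 (adjusted p = 0.017, edgeR).

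A74 against control gave 6 members called lower and 0 higher, 3 of which the choice had named. That is 11.1% and 0% of the members, against 0.408% and 0.78% of genes with at least 100 counts and 0.301% and 0.591% of all genes tested. Because the choice used this contrast for those 3, the share to set beside the background is that of the other 51, of which 3 (5.88%) were called lower and 0 higher. The median was -0.18 over the 54 and -0.16 over the 51, against -0.00 for all genes tested, and 41 of 54 were below 0. All A74 libraries lay below all control libraries in 16 members, 13 of them among the 51 (12.7% of genes at the same minimum) and above in 1, Gm43622 (14.6%). The other 3 calls were A930005G22Rik, Gm48062 and Gm49883. The first of these lies near the named Gm43231 on the same strand, as given below. At an unadjusted p under 0.05, 17 members were lower and 0 higher, against 9.26% and 10.6% of genes at the same minimum. DESeq2 called 11, all lower, against 1.27% of these genes lower and 1.37% higher. The edgeR count was 3 without A74 replicate 2, where calls over all genes also fell, to 6 lower and 15 higher of 17664. Without light damage replicate 3 and A74 replicate 1 the count of members was 9, all lower, the 6 together with Gm43858, Gm43980 and Gm49759. Calls over all genes also rose in that fit, to 517 lower and 417 higher of 17570, from 52 and 102 of 17272. With the Y-linked term the 6 calls remained, 3 of them the transcripts named in the choice.

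A930005G22Rik, on the opposite strand in an intron of the predicted gene Gm13832, had 48.5, 59.2 and 62.0 CPM in light damage, 46.9, 50.5 and 58.0 CPM in A74, and 74.5, 77.5 and 78.7 CPM in control. Both light groups overlapped each other and lay under control. The change was -0.57 (SE 0.09, adjusted p = 0.00889, edgeR) in A74 over control and -0.44 (SE 0.09, adjusted p = 0.00243, edgeR) in light damage over control. The A74 call was lost without control replicate 1, control replicate 2 or A74 replicate 2 (adjusted p up to 0.106, edgeR). The model (chr5:115420597-115422500, minus strand) lies downstream of Gm43231 (chr5:115427218-115429475) on the same strand. Other TEC models were left out when members were placed, and whether these transcripts share a precursor was not tested.

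Gm48062, over an exon of Eml5, a microtubule-associated protein gene, on the opposite strand, had 16.1, 15.1 and 17.1 CPM in light damage, 17.7, 15.2 and 16.6 CPM in A74, and 24.7, 23.0 and 25 CPM in control. The light groups overlapped and both were under control. It changed by -0.56 (SE 0.10, adjusted p = 0.0139, edgeR) in A74 over control and by -0.59 (SE 0.10, adjusted p = 0.000429, edgeR) in light damage over control. The A74 call was lost without control replicate 1, A74 replicate 2 or A74 replicate 3 (adjusted p up to 0.127, edgeR). Eml5 gave -0.21 in A74 over control (adjusted p = 0.166, edgeR) and -0.47 in light damage over control (adjusted p = 0.000218, edgeR).

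Gm49883, 8537 bases downstream of Memo1 on its strand, had 37.1, 35.8 and 39.2 CPM in light damage, 47.0, 41.2 and 48.5 CPM in A74, and 61.5, 60.4 and 65.4 CPM in control. The groups were ordered without overlap, and the values within each were close. The change was -0.74 (SE 0.07, adjusted p = 1.14e-05, edgeR) in light damage over control, 0.29 (SE 0.07, adjusted p = 0.0139, edgeR) in A74 over light damage and -0.45 (SE 0.07, adjusted p = 0.00711, edgeR) in A74 over control. The last was lost without A74 replicate 2 (adjusted p = 0.101, edgeR), and A74 over light damage without light damage replicate 2 or A74 replicate 3. Memo1 gave -0.11 in light damage over control (adjusted p = 0.224, edgeR). This transcript was singled out after its values were seen, as the last of the 6 calls.

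Long non-coding RNA genes that pass the same count minimum were also called lower more often than higher after light damage, while coding genes were called in near equal shares. Only the minimum was matched between biotypes, not the depth above it. In light damage against control, 38% of 271 lncRNA genes were called lower and 2.95% higher, with a median of -0.24. Of 10546 protein-coding genes 17% were lower and 14.5% higher, with a median of -0.00. Of 87 processed pseudogenes 3.45% were lower and 20.7% higher, with a median of 0.08. In A74 against light damage 20.3% of the lncRNA genes were higher and 2.58% lower, a share close to that of the members. In A74 against control 1.85% were lower and 0.738% higher, with a median of -0.08. The difference between biotypes was not tested.

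**Figure D5:**
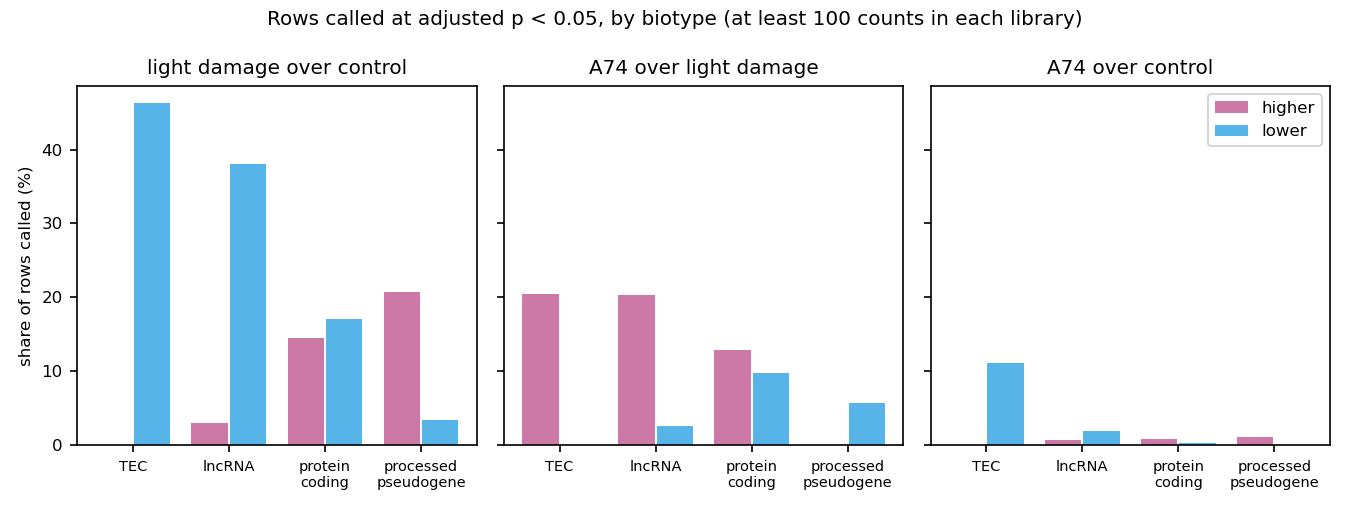
Share of rows called higher or lower (vertical axis, %) by biotype in the 3 comparisons, among rows with at least 100 counts in each library. In light damage over control 46.3% of TEC rows and 38% of lncRNA genes are lower, against 17% of protein-coding genes. The TEC bars include the 3 transcripts named in the choice for being below control. Over the other 51, 43.1% are lower in light damage over control and 5.88% in A74 over control.

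TEC rows that missed the count minimum but were tested numbered 421. In light damage against control 37 of them (8.79%) were called lower and 2 (0.475%) higher, against 12.8% and 13% of all genes tested, with a median of -0.25; in A74 against light damage 15 (3.56%) were higher and 6 (1.43%) lower, against 9.07% and 9.19%, with a median of 0.13; in A74 against control 5 (1.19%) were lower and 0 higher, against 0.301% and 0.591%, with a median of -0.13. All genes tested include the 11020 with at least 100 counts in each library, so the shares set beside these rows are not at like depth. Of those 11020 genes, 17.5% were called lower and 14.2% higher in light damage against control. A minimum in every library leaves out rows that dropped under it in the light groups. Just inside it stood Gm38020, Gm43667 and Gm43379, with lowest counts of 100, 104 and 104 and light damage changes of -0.80, 0.12 and -0.30. Just outside stood Gm47155, Gm48069 and Gm37829, with lowest counts of 98, 97 and 97 and changes of 0.02, -0.34 and -0.35. Gm38020 overlaps an exon of Ftx, a non-coding gene of the X inactivation centre. It had 7.40, 5.25 and 6.62 CPM in light damage, 11.4, 10.5 and 6.64 CPM in A74, and 11.4, 7.84 and 14.3 CPM in control, and its call (adjusted p = 0.0368, edgeR) was lost in 6 of the 9 fits without a library and without light damage replicate 3 and A74 replicate 1 together (adjusted p = 0.0865, edgeR). Particl, which overlaps an exon of the methionine adenosyltransferase gene Mat2a on the opposite strand and is known in human cells as a radiation-responsive RNA, gave -0.06 in light damage over control (adjusted p = 0.785, edgeR).

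Other RNA classes and cell type markers were measured beside the members. For the counts that follow, 12.8% of all genes tested were called lower and 13% higher in light damage against control. In A74 against light damage 9.07% were called higher and 9.19% lower. Rod markers fell in light damage against control in 9 of 14 genes, with a median of -0.53, and rose in A74 against light damage in 10 of 14. Their summed level ran from 22502 to 31227 CPM in light damage, from 34833 to 35309 CPM in A74 and from 34915 to 37830 CPM in control, and the median change in A74 against control was -0.12. Müller glia markers were higher in 6 of 7 and microglia and macrophage markers in 8 of 10 in light damage against control, and the microglia and macrophage list summed to 139 to 227 CPM in light damage, 48.0 to 68.3 CPM in A74 and 44.3 to 49.6 CPM in control. Of the other neuronal and vascular markers, 3 of 9 cone, 3 of 7 bipolar, 2 of 6 amacrine, 5 of 7 ganglion, 1 of 3 horizontal and 1 of 4 endothelial genes were higher. The pigment epithelium, lens and anterior eye lists had medians of -0.04, -0.41 and -0.19. The part of these shifts in the members' changes was not tested.

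Nuclear-retained lncRNAs moved in both directions. Of 14 tested, Tug1 (-0.22), Firre (-0.20) and Peg13 (-0.24) were lower and Neat1 (0.40) was higher in light damage against control, with a median of 0.02. Neuronal genes with long introns gave 2 of 15 lower (Grm8 and Csmd1) and a median of 0.07. Of all genes tested, 12.8% were called lower and 13% higher in this comparison, so the 2 of 15 is near the share over all genes. Mitochondrially encoded RNAs gave 2 of 11 higher (mt-Rnr1 and mt-Rnr2). The small nuclear RNAs and 7SK of the list were listed at 0 or missing, and none was tested.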

How the data were processed

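The authors deposited 1 gene table of read counts for the 9 libraries. Its values are whole numbers with totals that differ between libraries, so they were taken as unnormalised. Per the submitters' processing notes, Bowtie2, RSEM 1.3.1, DESeq2 1.4.5 and the build GRCm39 played a part that is not described. Strandedness and library selection: not given in the sources used here.

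The members, gene lists and tests were chosen with earlier results of these data known. Genes were kept by filterByExpr at a minimum count of 10 (17272 genes), given TMM scaling, and fitted once over all libraries in edgeR 4.0.16 (R 4.3.3). The robust quasi-likelihood test was used, and its p-values were adjusted across all these genes by Benjamini-Hochberg. The test was run on simulated data first. SE is the log2 fold change over the square root of F. Log2 CPM used a prior count of 2. Depth was at least 14787972 counts a library, and precision for single transcripts is limited by their counts, from 100 upward.

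Named transcripts are those of the choice, the 3 with the highest mean CPM, up to 5 called per direction and comparison with the largest change, and those next to the count minimum; others named were picked after their values were seen. Positions and sequences are from GENCODE M21 (GRCm38), a build other than that of the counts. RefSeq tables matched 2 members by symbol and were not used.

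Replicate numbers come from the sample titles. Same-numbered libraries deviated together in light damage and control (correlations 0.116, 0.246 and 0.311), so these were treated as paired in an alternative fit. The library names number the light-exposed libraries otherwise, so they do not bear out the pairing by title. Alternatives were DESeq2's size factors, no count filter, DESeq2 1.42.0, the 2 groups alone, the replicate block, a 2-fold minimum, a Y-linked term, other count minimums for members, and leaving out libraries. Values of a neighbouring gene were left out and are not reported here.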

Additional observations from a re-analysis of the deposited data

How the results depend on the processing

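No named member that was called changed sign under any alternative. At 2-fold or more, 2 members were called lower in light damage against control and 1 higher in A74 against light damage. In A74 against control 1 was called lower. Of 17272 genes tested, 133, 61 and 6 were called in these directions, out of 615, 481 and 16 called in either. The members called against control were Gm47160 and Gm48581 in light damage and Gm47160 in A74, which the choice had named. Among the 51 other members the lowest log2 fold changes against control were -0.90 in light damage and -0.75 in A74. With the Y-linked term 745 genes and 3 members were called in A74 against light damage, and 96 genes in A74 against control, where the members' median was -0.23. A74 against control moved most: 718 genes and 11 members were called without a count filter, 558 and 10 with these groups alone, 322 and 11 with DESeq2, and 934 genes without light damage replicate 3 and A74 replicate 1. At a minimum of 200 counts the members' medians were -0.59, 0.25 and -0.30 in light damage against control, A74 against light damage and A74 against control. As shares of the raw totals, the summed level of light damage over control was -0.39 on the log2 scale, in place of -0.48. The summed CPM over the 51 members that the choice did not name was added after seeing the data. Its log2 ratio was -0.38 for light damage over control, in place of -0.48 over all members. For A74 over control it was -0.21 in place of -0.31.

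Leaving out 1 library gave 2818 to 5467 genes, 18 to 25 members and medians of -0.37 to -0.28 in light damage against control, 1717 to 4514, 7 to 16 and 0.08 to 0.14 in A74 against light damage, and 21 to 416, 3 to 8 and -0.20 to -0.11 in A74 against control. The extremes came without light damage replicate 2 (2818 genes), without light damage replicate 1 (1717), and without A74 replicate 2 (21) or light damage replicate 3 (416). Of the 25, 11 and 6 calls, 16, 3 and 3 held in every such fit. The 3 that held in A74 against control were Gm47160, Gm43231 and Gm48581, the members named in the choice for being below control. These 3 are also among the 16 in light damage against control. The replicate block gave 24 members in light damage against control, 23 of them shared; A930004J17Rik (adjusted p = 0.0509, edgeR) and E330034L11Rik (0.074) were lost and Gm49204 (0.0491) was gained. The pairing did not hold in the other comparisons, where same-numbered libraries correlated at -0.0925 to 0.137 and the block gave 11 and 7 members. Transcripts near 100 counts carry wide errors, and their missing calls show no absence of change.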
